A study of Mus musculus with 6 samples.

Results

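Resident and alternatively activated macrophage genes are described here in dorsal skin of wild-type mice and of tight-skin (Tsk) mice, which have a mutant Fbn1, the gene of fibrillin 1. The 10 genes were taken by symbol from a count table of 55291 genes, and all 10 passed the filter on low counts, as did 19971 genes in all. They are Retnla, Mrc1, Cd163, Folr2, Csf1r, Adgre1, Cd68, Lyz2, Arg1 and Cbr2. Whole shaved skin was sequenced at day 40 of age in 3 wild-type samples, of strain C57BL/6, and 3 Tsk samples, of strain B6.Cg-Fbn1Tsk/J. The genotype label of the Tsk samples is Fbn1+/-, although the Tsk mutation duplicates exons of the gene and deletes none. Fbn1 itself stood at 261, 351 and 296 CPM (counts scaled to library size) in wild type and at 1450, 2053 and 1781 CPM in Tsk, so the level rose with no overlap (log2 fold change 2.54 ± 0.24 SE, edgeR adjusted p = 0.00401). The samples are called Tsk here from their strain name. No treatment is named for either group. Whether each sample is a different mouse is not stated in the labels, and the p-values therefore reflect only sample-to-sample spread, which may be technical.

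Tissue macrophages in skin settle around vessels, nerves and fat and live by signals through the receptor encoded by Csf1r. Resident cells of the dermis are known for scavenger and mannose receptors, which take up glycoproteins, haemoglobin complexes and debris. Alternative activation is the state that interleukin 4 and interleukin 13 induce through the transcription factor STAT6, and in mouse its classical marks are Retnla, Arg1 and Mrc1. The members are grouped here into genes induced in alternative activation (Retnla, Arg1) and receptors of resident cells (Mrc1, Cd163, Folr2). Mrc1 belongs to both groups and is described with the receptors. The others are genes of macrophages in general (Csf1r, Adgre1, Cd68, Lyz2) and the carbonyl reductase gene Cbr2.

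Sequence windows upstream of the members' start sites are shown for Retnla, the member that differed most, and for the receptor genes Mrc1 and Cd163, whose groups did not overlap. RefSeq windows on build GRCm38.p6 were found for 7 of the 10 members, and not for Csf1r, Adgre1 and Arg1. They are printed 5′ to 3′, on the plus strand for all 3 genes, and end before the gene model begins. Capitals mark the matches to the motifs searched.
Retnla, chr16:48842359-48842550: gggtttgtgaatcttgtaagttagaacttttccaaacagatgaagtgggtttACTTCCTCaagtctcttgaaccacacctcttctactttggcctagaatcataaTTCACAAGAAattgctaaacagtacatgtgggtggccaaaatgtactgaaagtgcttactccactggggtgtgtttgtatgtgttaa
Mrc1, chr2:14229164-14229391: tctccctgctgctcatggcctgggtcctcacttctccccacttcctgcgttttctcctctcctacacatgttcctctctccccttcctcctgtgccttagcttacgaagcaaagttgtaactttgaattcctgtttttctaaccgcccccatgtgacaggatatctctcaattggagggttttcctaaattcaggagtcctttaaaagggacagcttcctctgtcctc
Cd163, chr6:124304401-124304650: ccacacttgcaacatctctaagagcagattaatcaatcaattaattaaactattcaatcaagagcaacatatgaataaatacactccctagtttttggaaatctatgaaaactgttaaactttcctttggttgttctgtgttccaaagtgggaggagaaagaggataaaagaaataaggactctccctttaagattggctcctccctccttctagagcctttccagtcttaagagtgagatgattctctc
The motifs were TTC and GAA parted by any 4 bases, the kind STAT6 binds, TTCNNNGAA, of the kind other STAT proteins bind, and GAGGAAGT, of the kind bound by PU.1, the lineage factor of macrophages, each searched on both strands in the 250 bases before the start site. The Retnla window held TTCACAAGAA, from base -145 to -136 counted from the start site, and the PU.1-type letters as ACTTCCTC on the minus strand, from -198 to -191. The windows of the other 6 matched members held none of these letters. Of all 32851 windows, 5.85% held the STAT6-type motif, 7.02% the other STAT motif and 2.44% the PU.1-type motif. A match describes the letters and is not evidence of binding.

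The comparison of Tsk with wild-type skin showed a rise in Retnla and smaller, uncertain differences in the other members. Library totals ran from 17561271 to 19219622 counts. Of 19971 genes tested with edgeR's quasi-likelihood test, 3.42% passed a Benjamini-Hochberg adjusted p of 0.05, 2.72% higher and 0.696% lower in Tsk. Of the 10 members, Retnla alone passed, with 0 lower. At an unadjusted edgeR p under 0.05, 7 members were higher and 1 was lower, against 12.1% and 7.94% of all genes. The median log2 fold change of the members was 0.95, against -0.03 over all genes tested. In 5 members every Tsk library lay above every wild-type library, and in 1 every Tsk library lay below, as held for 14.1% and 10.6% of all genes. Of all 19971 genes, DESeq2 called 1142 higher and 444 lower, and limma-voom 456 and 115. Limma-trend on the deposited CPM at a pseudocount of 1 called 1794 and 101. Counts for the other lists below are to be read against these. The members' median was 0.52 without Tsk replicate 6, the library with the highest level in 9 of the 10 members. That library was the highest of the 6 in 22.9% of all genes. In bulk skin, more macrophages and more RNA per macrophage cannot be told apart.

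**Figure D1:**
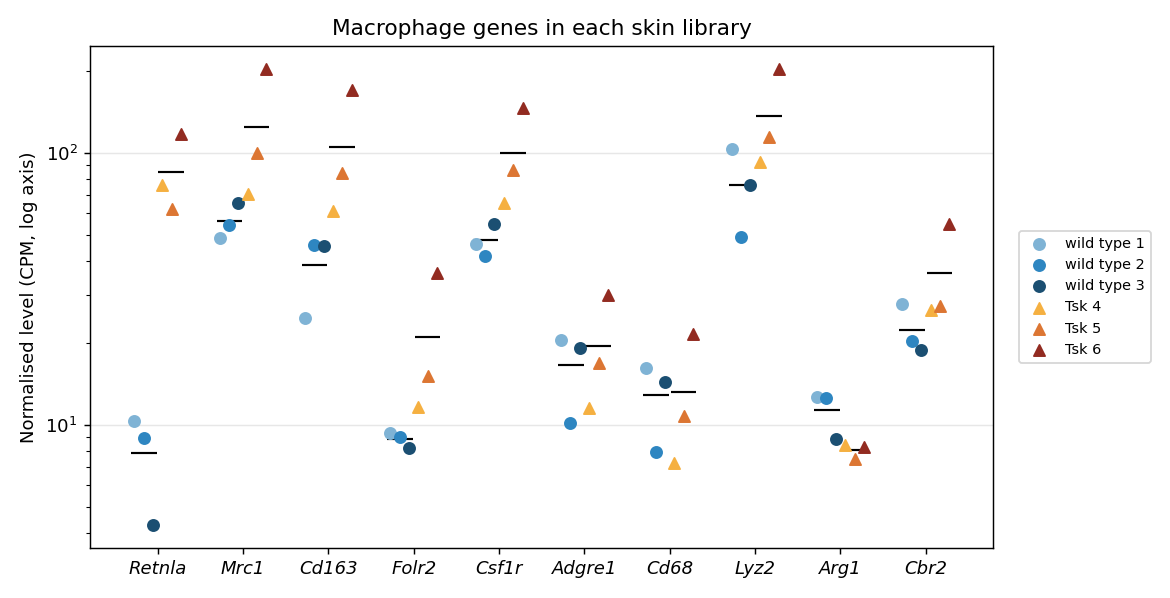
Levels of the 10 members in CPM (counts scaled to library size with TMM factors) on a log axis, 1 point per library, with circles for wild type, triangles for Tsk and black bars for group means. Retnla is at 4.29 to 10.4 CPM in the wild-type libraries and 62.0 to 118 CPM in the Tsk libraries, while the groups overlap for Adgre1, Cd68, Lyz2 and Cbr2.

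Retnla, also called FIZZ1 or RELMα, is a secreted cysteine-rich protein of the resistin family made by alternatively activated macrophages and by fat tissue. The gene occupies bases 48842551 to 48844461 of chromosome 16 (mm10, plus strand). Its counts were 186, 138 and 69 in wild-type replicates 1 to 3 and 1470, 1326 and 2502 in Tsk replicates 4 to 6. In CPM these were 10.4, 8.94 and 4.29 against 76.2, 62.0 and 118. All 3 Tsk libraries stood far above all 3 wild-type libraries, and the lowest Tsk value belonged to replicate 5. Retnla rose from 7.86 ± 3.17 to 85.3 ± 29.0 CPM (SD, n = 3 each), a 10.8-fold difference (log2 fold change 3.44 ± 0.36 SE, edgeR adjusted p = 0.00582). Errors of log2 fold changes are SE throughout. Retnla passed in all 18 alternative settings, with log2 fold changes from 3.13 to 3.95.

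Arg1 encodes arginase 1, which turns arginine into ornithine and urea and is also made by cells of the epidermis. The gene occupies bases 24915221 to 24927484 of chromosome 10 (minus strand). Its level was 12.6, 12.6 and 8.88 CPM in wild type and 8.40, 7.48 and 8.28 CPM in Tsk. With TMM scaling, the Tsk values were close to each other and all below the lowest wild-type value, that of replicate 3. The counts were 227, 194 and 143 in wild type and 162, 160 and 176 in Tsk. Before scaling, wild-type replicate 3 was thus the lowest library, and the absence of overlap rests on the TMM factors. The log2 fold change was -0.50 ± 0.18 and did not pass (edgeR adjusted p = 0.165). It was -0.23 with library totals alone (edgeR adjusted p = 0.547). By limma-trend on the deposited CPM at a pseudocount of 1 it was -0.18 (limma adjusted p = 0.590). The fold changes of Retnla and Arg1 thus had opposite signs. The keratinocyte marker list, whose cells also make Arg1, had 1 of 9 members called higher by edgeR, against 2.72% of all genes. That member was the cornified envelope gene Lor (1.78 ± 0.22), and the median of the list was -0.26. The summed level of the list was 4824 to 7424 CPM in wild type and 3883 to 6881 CPM in Tsk. The part of keratinocytes in the Arg1 value was not tested.

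The receptor genes of resident macrophages were higher in every Tsk library, with a wide spread within Tsk. Mrc1 encodes the mannose receptor CD206 and occupies bases 14229392 to 14332057 of chromosome 2 (plus strand), with the microRNA gene Mir511 inside it. It stood at 48.6, 54.1 and 65.2 CPM in wild type and 70.7, 99.7 and 204 CPM in Tsk. Wild-type replicate 3 came close to Tsk replicate 4, and Tsk replicate 6 stood apart from both other Tsk libraries. The log2 fold change was 1.16 ± 0.35 (edgeR adjusted p = 0.115).

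Cd163 (chromosome 6, 124304656 to 124330527, plus strand) encodes the scavenger receptor for complexes of haemoglobin and haptoglobin. Its levels were 24.7, 45.9 and 45.5 CPM in wild type and 61.1, 84.5 and 170 CPM in Tsk, so the groups did not overlap and wild-type replicate 1 was the lowest. The log2 fold change was 1.44 ± 0.39 (edgeR adjusted p = 0.0889). Folr2 (chromosome 7, 101839988 to 101857194, minus strand) encodes folate receptor beta, a surface protein of perivascular macrophages. It stood at 9.35, 9.01 and 8.20 CPM in wild type, which lay close together, and at 11.7, 15.1 and 36.2 CPM in Tsk. The log2 fold change was 1.25 ± 0.39 (edgeR adjusted p = 0.122). An antisense gene and a pseudogene, Gm10602 and Gm45319, overlap Folr2 on the plus strand, and how the counting treated strand is not stated in the labels. By DESeq2 all 3 receptor genes passed (adjusted p = 0.00959 for Mrc1, 0.00157 for Cd163 and 0.0129 for Folr2), and without Tsk replicate 6 their log2 fold changes by edgeR were 0.61, 0.91 and 0.59.

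Among genes of macrophages in general, Csf1r had groups that did not overlap, and Adgre1, Cd68 and Lyz2 had groups that did. Csf1r encodes the receptor for the growth factors CSF1 and interleukin 34 and occupies bases 61100598 to 61132149 of chromosome 18 (plus strand). It stood at 46.4, 41.7 and 54.9 CPM in wild type and 65.6, 86.6 and 147 CPM in Tsk, with no overlap, and its log2 fold change was 1.06 ± 0.28 (edgeR adjusted p = 0.0773). It passed by DESeq2 (adjusted p = 0.00342) and by edgeR without Tsk replicate 4 (1.29, adjusted p = 0.0340), and stood at 0.68 without Tsk replicate 6. Hmgxb3, on the opposite strand, overlaps Csf1r, and Csf1r counts were not whole numbers in any library, so some reads may have been shared.

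Adgre1, which encodes the macrophage surface protein F4/80, occupies bases 57358691 to 57483527 of chromosome 17 (plus strand). It stood at 20.5, 10.2 and 19.2 CPM in wild type and 11.5, 16.9 and 30.0 CPM in Tsk, so the groups overlapped (0.23 ± 0.37, edgeR adjusted p = 0.787). Cd68, which encodes a lysosomal membrane protein, occupies bases 69664213 to 69666153 of chromosome 11 (minus strand). It stood at 16.2, 7.97 and 14.4 CPM in wild type and 7.26, 10.8 and 21.6 CPM in Tsk, and the lowest of the 6 values was a Tsk value (0.04 ± 0.40, edgeR adjusted p = 0.969). For both genes wild-type replicate 2 was the lowest wild-type library, and both fold changes turned negative without it or without Tsk replicate 6.

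Lyz2 encodes the bactericidal lysozyme of myeloid cells and occupies bases 117277331 to 117282321 of chromosome 10 (minus strand). It stood at 103, 49.0 and 76.5 CPM in wild type and 92.8, 114 and 203 CPM in Tsk, where wild-type replicate 1 exceeded Tsk replicate 4 (0.84 ± 0.34, edgeR adjusted p = 0.219). Its neighbour Lyz1 shares 95.1% of 447 coding bases with it, and Lyz2 counts were not whole numbers in any library, so reads may have been split between them. Lyz1, which is known from the small intestine, had counts of 29, 33 and 25 in wild type and 201, 195 and 323 in Tsk. It rose by 2.71 ± 0.26 on the log2 scale (edgeR adjusted p = 0.00407) and passed in all 18 alternatives. Lyz1 made up 1.54, 4.18 and 1.99% of the counts of both genes in wild type and 10.1, 7.39 and 6.97% in Tsk, so its share did not overlap between groups. Because the copies are nearly identical, the Lyz1 value is uncertain.

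Cbr2 encodes a carbonyl reductase that is among the marker genes of resident dermal macrophages and is also known from lung and fat. The gene occupies bases 120729489 to 120732114 of chromosome 11 (minus strand). Its levels were 27.7, 20.3 and 18.8 CPM in wild type and 26.4, 27.4 and 54.7 CPM in Tsk, and wild-type replicate 1 exceeded Tsk replicates 4 and 5. The log2 fold change was 0.70 ± 0.29 (edgeR adjusted p = 0.233).

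Levels can be set against each other between genes only per length, here in CPM per kilobase of merged exons. In wild type, Lyz2 was the highest member at 57.9 ± 20.6 (SD, n = 3), above every value of the other members, followed by Cbr2 at 16.8 ± 3.59, Retnla at 13.1 ± 5.30 and Cd68 at 10.2 ± 3.43. In that order, the ranges of neighbours overlapped from Cbr2 down to Cd68. The remaining members stood at 5.10 to 8.79. In Tsk, Retnla was the highest on this scale at 142 ± 48.4 and Lyz2 followed at 104 ± 44.3, with ranges that overlapped each other but not those of any other member. Cbr2 stood at 27.3 ± 12.1, and Mrc1, Cd163, Csf1r and Folr2 at 19.6, 19.3, 17.3 and 13.6, with ranges that overlapped. Cd68 stood at 10.5 and Adgre1 at 6.01, and Arg1 was the lowest at 3.61 ± 0.224.

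The spread within Tsk was shared by most members. Tsk replicate 6 stood at 2.71 times the mean of Tsk replicates 4 and 5 in Folr2, 2.40 times in Cd68, 2.39 times in Mrc1 and 2.33 times in Cd163. The ratio was 2.11 in Adgre1, 2.04 in Cbr2, 1.96 in Lyz2, 1.93 in Csf1r, 1.70 in Retnla and 1.04 in Arg1, against a median of 1.01 over all genes tested. Across the 6 libraries, log2 CPM of Mrc1 correlated with Csf1r at 0.98, Folr2 at 0.96 and Cd163 at 0.96, and Adgre1 with Cd68 at 0.97 (Pearson's r, descriptions over 6 libraries that share the group difference). Retnla correlated with Mrc1 at 0.75, with Cd68 at 0.04 and with Arg1 at -0.64.

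The members were next set against 16 macrophage genes that are not members, by subtracting the mean log2 CPM of the 16 in each library. Relative to them Retnla stood at -0.68, 0.05 and -1.64 in wild type and 2.90, 2.49 and 2.49 in Tsk, a difference of 3.39 on the log2 scale. Tsk replicates therefore differed little in relative Retnla level, and none came near the wild-type values. Mrc1, Cd163, Folr2 and Csf1r differed by 0.95, 1.29, 0.99 and 0.91 on this scale, Lyz2 by 0.75 and Cbr2 by 0.56, all without overlap of the groups. The share of all genes without overlap on this scale was not computed. In CPM the groups overlapped for Lyz2 and Cbr2. The mean log2 CPM of the 16 genes was itself 4.07, 3.13 and 3.78 in wild type and 3.35, 3.47 and 4.39 in Tsk. Adgre1 (0.10), Cd68 (-0.12) and Arg1 (-0.55) overlapped. Lyz2 ran from 2.48 to 2.62 in wild type and from 3.19 to 3.37 in Tsk.

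**Figure D2:**
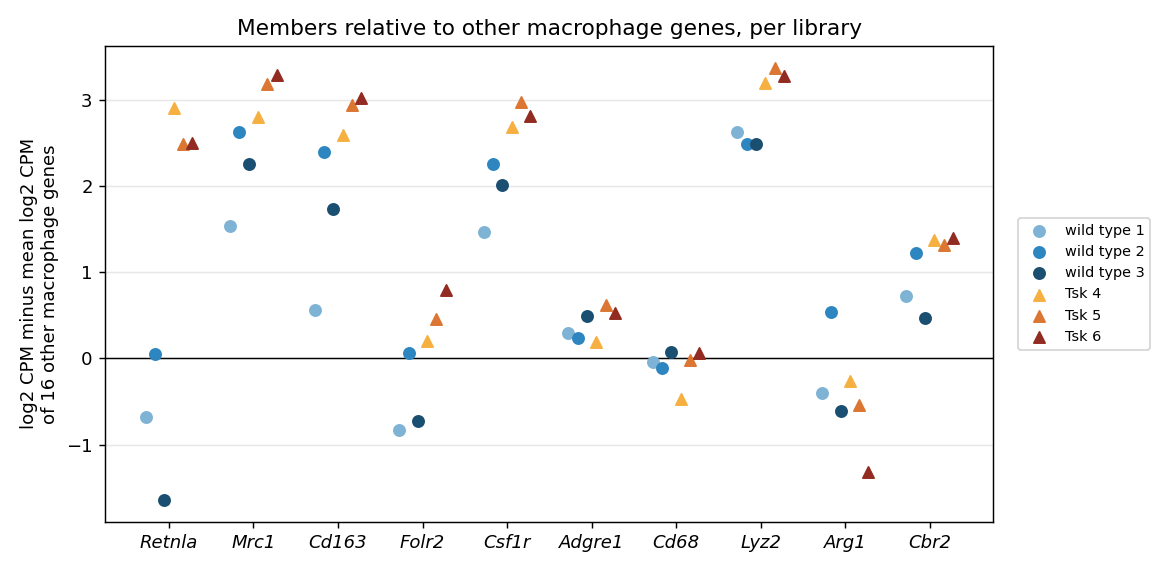
Each member's log2 CPM minus the mean log2 CPM of 16 other macrophage genes, 1 point per library, circles for wild type and triangles for Tsk. Retnla lies between -1.64 and 0.05 in wild type and between 2.49 and 2.90 in Tsk, whereas Adgre1 and Cd68 overlap.

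Those 16 genes had fold changes of both signs. By edgeR 0 of 16 passed, while at an unadjusted p under 0.05 there were 6 higher and 3 lower, against 12.1% and 7.94% of all genes. DESeq2 called 2 higher and 2 lower, against 1142 and 444 of all 19971 genes. Limma-voom called 0 and limma-trend on the deposited CPM 2 higher, where limma-trend at a pseudocount of 1 called 1794 of all genes higher. Their median log2 fold change was 0.35, and leaving out a single library moved it to -0.05 (Tsk replicate 6), 0.01 (wild-type replicate 2) or 0.75 (wild-type replicate 1). Among the most abundant was the protease gene Lgmn (-0.47 ± 0.22 SE, edgeR adjusted p = 0.271). The complement gene C1qa (0.98 ± 0.37) and the receptor gene Mertk (0.80 ± 0.19), which serves uptake of dead cells, stood above 0 with no overlap of the groups. For the complement genes C1qb (0.95 ± 0.39) and C1qc (1.01 ± 0.37) of the same list the groups overlapped. The pore-forming protein gene Mpeg1 (-1.41 ± 0.37) and the fractalkine receptor gene Cx3cr1 (-0.96 ± 0.29) stood below 0 with no overlap. In the list of 16, 2 genes were higher and 2 lower without overlap, against 14.1% and 10.6% of all genes. All genes named here but Lgmn were picked after their values were seen, and none passed by edgeR.

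Of 18 other genes of resident and perivascular macrophages, 5 rose and 0 fell, against 2.72% and 0.696% of all genes. In 11 every Tsk library lay above every wild-type library, against 14.1% of all genes. The median log2 fold change of the 18 was 1.17, and 17 of them were above 0, against 47.0% of all genes. The list was chosen with earlier results of these data known. Vsig4, a complement receptor of resident macrophages, rose by 3.68 ± 0.62, from counts of 4, 0 and 1 to 21, 29 and 35, so its fold rests on few counts. The ficolin gene Fcna stood at 2.95, 4.28 and 3.79 CPM in wild type and 11.8, 16.5 and 36.0 CPM in Tsk, a rise of 2.55 ± 0.41 (edgeR adjusted p = 0.0186). F13a1, which encodes coagulation factor XIII A, rose by 1.61 ± 0.31, and the Fc receptor-like gene Fcrls by 1.76 ± 0.33. The fifth was Lyve1, the hyaluronan receptor of perivascular macrophages and lymphatic vessels, at 2.22 ± 0.46. With wild-type replicate 1, 2 or 3 left out, the count of 5 became 1, 2 and 0. With Tsk replicate 4, 5 or 6 left out, the count was 8, 5 and 4. DESeq2, library totals alone and limma-trend each called 11 of the 18, limma-voom 3 and edgeR with the adipocyte level as a covariate 0. More of all 19971 genes were also called higher in the first 3 of these settings than the 544 of the main fit. The numbers were 1142 with DESeq2, 1695 with library totals alone and 1794 with limma-trend at a pseudocount of 1. With limma-voom 456 were called higher, and with the adipocyte covariate 55. The median of the list was 0.70 without Tsk replicate 6.

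**Figure D3:**
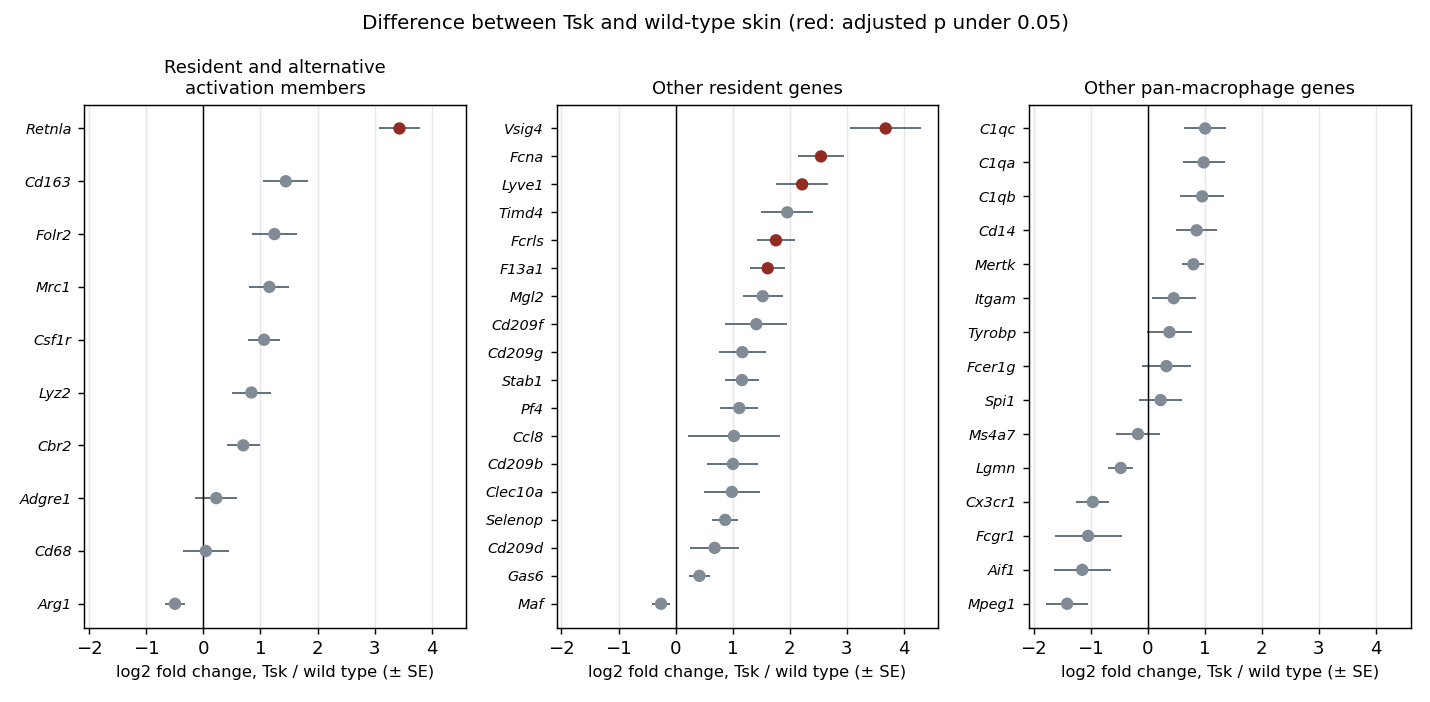
Log2 fold changes of Tsk over wild type with SE for the 10 members, 18 other resident macrophage genes and 15 of the 16 other pan-macrophage genes, with red points for adjusted p under 0.05 by edgeR. Retnla is the red point among the members, 5 of the resident genes are red, and the pan-macrophage genes shown run from -1.41 to 1.01.

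Further genes of alternative activation gave calls in both directions. Of 13 listed genes 7 passed the filter on low counts, and of these 1 rose and 1 fell, against 2.72% and 0.696% of all genes. The eosinophil chemokine gene Ccl24 rose by 2.51 ± 0.47, from counts of 6, 15 and 4 to 45, 53 and 85. The transglutaminase gene Tgm2, also strong in vessels, stood at 302, 331 and 328 CPM in wild type and 200, 140 and 177 CPM in Tsk, and fell with no overlap (log2 fold change -0.89 ± 0.17, edgeR adjusted p = 0.0314). The Tgm2 call was lost with the adipocyte covariate (-0.60, edgeR adjusted p = 0.346) and when wild-type replicate 2 or 3 or Tsk replicate 5 or 6 was left out (0.0817 to 0.138), and that of Ccl24 with the covariate (0.140) and when wild-type replicate 3 or Tsk replicate 6 was left out (0.112 and 0.0727). Chil3, which encodes the chitinase-like protein YM1, was among the 6 that did not pass the filter, with counts of 13, 5 and 13 in wild type and 0, 1 and 2 in Tsk.

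The inducing signals were at the edge of detection. Il4 had counts of 2, 0 and 0 in wild type and 1, 0 and 0 in Tsk, and Il13 had 0 in every library, where a count of 0 allows up to 3 counts or 0.140 to 0.194 CPM (counting error only). Of 11 tested genes of type 2 cytokines, their receptors and signalling, edgeR called 0. At an unadjusted edgeR p under 0.05, 2 were higher, against 12.1% of all genes. DESeq2 called 1 higher, limma-voom 0 and limma-trend 1 higher. The kinase gene Jak1 stood at -0.22 ± 0.15 and Stat6 at 0.10 ± 0.13. Among growth and recruitment genes, 1 of 9 rose, against 2.72% of all genes. This was the CSF1 receptor ligand gene Il34, at 0.85 ± 0.18 (edgeR adjusted p = 0.0401), from 15.02, 9.27 and 12.7 CPM to 21.5, 24.1 and 21.5 CPM. It passed in 11 of 18 alternatives and was not called with upper quartile factors (edgeR adjusted p = 0.0503), with the adipocyte covariate (0.278) or when any library but wild-type replicate 1 was left out (0.0775 to 0.153). The other ligand, Csf1, named after its value was seen, stood at 0.69 ± 0.25 (edgeR adjusted p = 0.177).

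Classical activation genes had 0 of 10 tested members called by edgeR. At an unadjusted edgeR p under 0.05, 1 was higher and 1 lower, against 12.1% and 7.94% of all genes. DESeq2 called 1 higher and 1 lower, limma-voom 0 and limma-trend 1 higher. The most abundant were the transcription factor gene Irf5 (0.21 ± 0.22) and the NAD-consuming enzyme gene Cd38 (0.82 ± 0.20, edgeR adjusted p = 0.0662). In the list of haem and iron handling, 2 of 8 tested members rose, against 2.72% of all genes. Hp, the gene of haptoglobin, whose complex with haemoglobin is the ligand of CD163, stood at 36.5, 31.2 and 37.1 CPM in wild type and 126, 221 and 160 CPM in Tsk, a rise of 2.27 ± 0.21 (edgeR adjusted p = 0.00401), and it passed in all 18 alternatives. Hp was highest in Tsk replicate 5, as was the list of adipocyte markers, while Cd163 was highest in Tsk replicate 6. Which cells the Hp reads came from was not tested. The iron exporter gene Slc40a1 rose by 0.85 ± 0.15, a call that was lost with the adipocyte covariate (edgeR adjusted p = 0.219) and when wild-type replicate 2 or 3 or Tsk replicate 4 or 5 was left out (0.0669 to 0.108). Arginine and polyamine genes had 0 of 9 called by edgeR, with 1 higher and 2 lower at an unadjusted p under 0.05 (12.1% and 7.94% of all genes). DESeq2 called 1 of these 9 lower, limma-voom 0 and limma-trend 1 higher. The 2 with the highest mean log2 CPM, Oat and Slc7a2 (6.74 and 6.16), stood at -0.38 ± 0.17 and -0.25 ± 0.26. Sms, at a mean log2 CPM of 6.15, stood at -0.72 ± 0.22 (edgeR adjusted p = 0.113) and was picked after its value was seen. Of 11 tested family relatives of the members 1 rose, Lyz1, against 2.72% of all genes.

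Markers of other cell types also differed between the groups. The adipocyte list, whose cells are a known source of Retnla, had 8 of 12 members higher without overlap, against 14.1% of all genes. By edgeR 2 rose, Lep and Cfd, against 2.72% of all genes, and by DESeq2 7, against 1142 of all 19971 genes. Both edgeR calls were lost when any wild-type library was left out (edgeR adjusted p = 0.153 to 0.191). They were also lost without the low-count filter and with the muscle covariate. The mean log2 CPM of the list was 5.29 to 5.68 in wild type and 6.22 to 8.35 in Tsk. Its summed level overlapped, at 3102 to 4744 CPM and 3057 to 7456 CPM. In that sum Car3, named after its value was seen, stood at 2449.7 to 3616.9 CPM in wild type and 2007.7 to 2666.5 CPM in Tsk. The list was highest in Tsk replicate 5, the Tsk library with the lowest Retnla. The adipocyte hormone gene Retn, a relative of Retnla, stood at 3.51, 4.54 and 2.48 CPM in wild type and 9.90, 63.5 and 3.95 CPM in Tsk, with overlap (edgeR adjusted p = 0.173). With the adipocyte level as a covariate, Retnla stood at 3.95 ± 0.42 (edgeR adjusted p = 0.0182). That level, the mean log2 CPM of the list, did not overlap between the groups. The fit therefore cannot tell the adipocyte level and the group apart. In that fit 60 genes were called in all, and of the called genes in the lists of macrophage genes and their relatives only Retnla, Hp and Lyz1 passed. The skeletal muscle list had 0 of 12 members called by edgeR. At an unadjusted edgeR p under 0.05, 7 were lower and 1 higher, against 7.94% and 12.1% of all genes. DESeq2 called 8 lower and 1 higher, against 444 and 1142 of all 19971 genes. Without overlap 7 were lower, against 10.6% of all genes. The list summed to 146210 to 263590 CPM in wild type and 116430 to 138560 CPM in Tsk. With the muscle level as a covariate Retnla stood at 3.42 ± 0.44 (edgeR adjusted p = 0.0196).

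Fibroblast markers were all above 0, against 47.0% of all genes. By edgeR 2 of 10 rose, Dpt and Pi16, against 2.72% of all genes. DESeq2 called 8 and limma-trend 9, and edgeR with wild-type replicate 3 left out called 0. The fibroblast list summed to 6261 to 10986 CPM in wild type and 18592 to 42506 CPM in Tsk, highest in replicate 6. Mast cell markers had a median of 1.09, with 5 of 5 tested members above 0. At an unadjusted edgeR p under 0.05, 5 were higher, against 12.1% of all genes. EdgeR called 0 of them, DESeq2 2, limma-voom 0 and limma-trend 3. Monocyte and neutrophil markers had 0 of 5 called by edgeR or DESeq2 and a median of -0.80. At an unadjusted edgeR p under 0.05, 2 were lower, against 7.94% of all genes. They summed to 14.7 to 32.8 CPM in wild type and 10.99 to 22.2 CPM in Tsk. The neutrophil marker Ly6g was at 0 counts in every library. Pan-leukocyte markers summed to 43.6 to 107 CPM in wild type and 75.1 to 131 CPM in Tsk, with a median of 0.12 and 0 of 5 called by edgeR (0 at an unadjusted p under 0.05) or DESeq2, and wild-type replicate 2 was the lowest. Dendritic cell, T cell and endothelial lists had 0 of 8, 0 of 5 and 0 of 8 tested genes called by edgeR. At an unadjusted edgeR p under 0.05, 0, 1 and 4 were higher, against 12.1% of all genes, and DESeq2 called 1 endothelial gene. The parts of these cell types in the members' values were not tested.

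**Figure D4:**
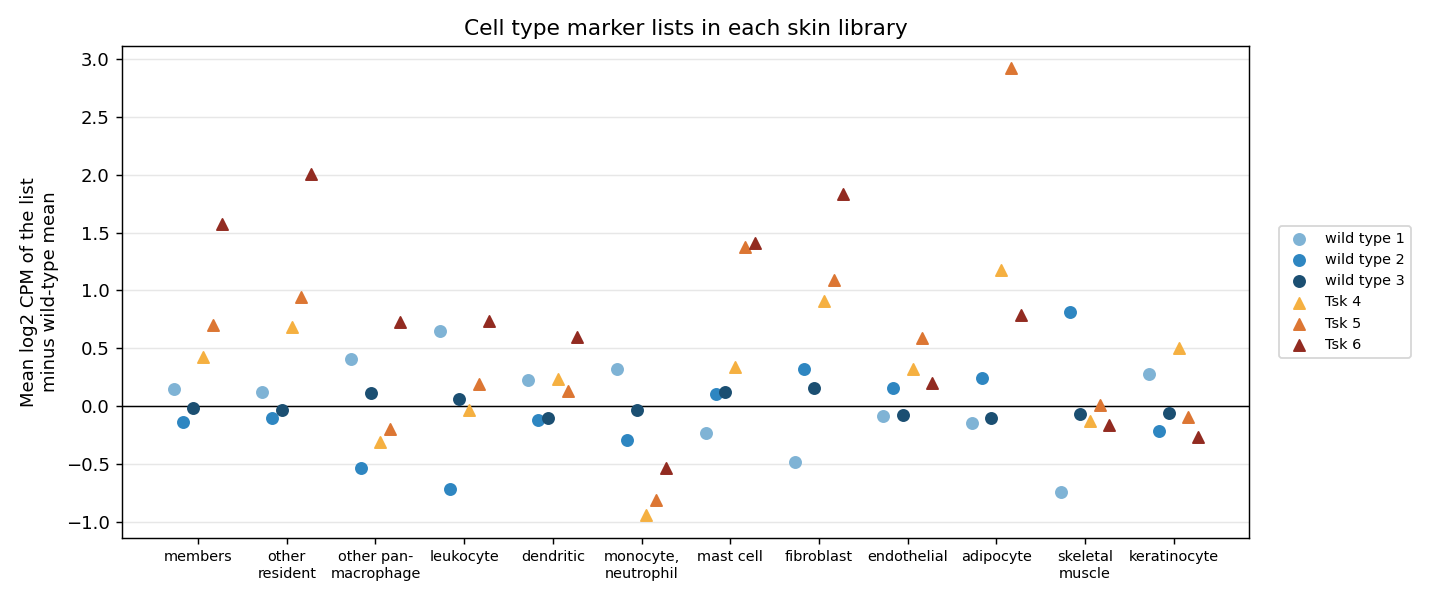
Mean log2 CPM of the tested genes of each list minus the wild-type mean of the list, 1 point per library, circles for wild type and triangles for Tsk. The members and the other resident genes are highest in Tsk 6, the adipocyte list in Tsk 5, and the leukocyte list overlaps between groups.

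Genes most like Retnla over the 6 libraries were sought among 15147 genes with a mean log2 CPM of at least 1. They were Kazn (Pearson's r 0.996), Zfp704 (0.994), Slc2a13 (0.994), the endothelial gene Plvap (0.993) and Nbea (0.992). The highest of their fold changes was that of the inositol transporter gene Slc2a13, at 2.02 ± 0.22 (edgeR adjusted p = 0.00582), and none is in the macrophage lists. Zfp704 was not called (edgeR adjusted p = 0.0670), and Kazn and Nbea each lost the call in 5 of 6 fits with 1 library left out. Retnla differed more between the groups than within them, so a gene with so high an r must also differ by group. These correlations therefore give no evidence beyond the group difference. Genes most like Mrc1 were Gdpd5 (0.998), Sema3a (0.993), Pdgfc (0.993), Tgfbrap1 (0.992) and the scavenger receptor gene Stab1 (0.991), the last of which is in the list of resident genes.

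**Figure D5:**
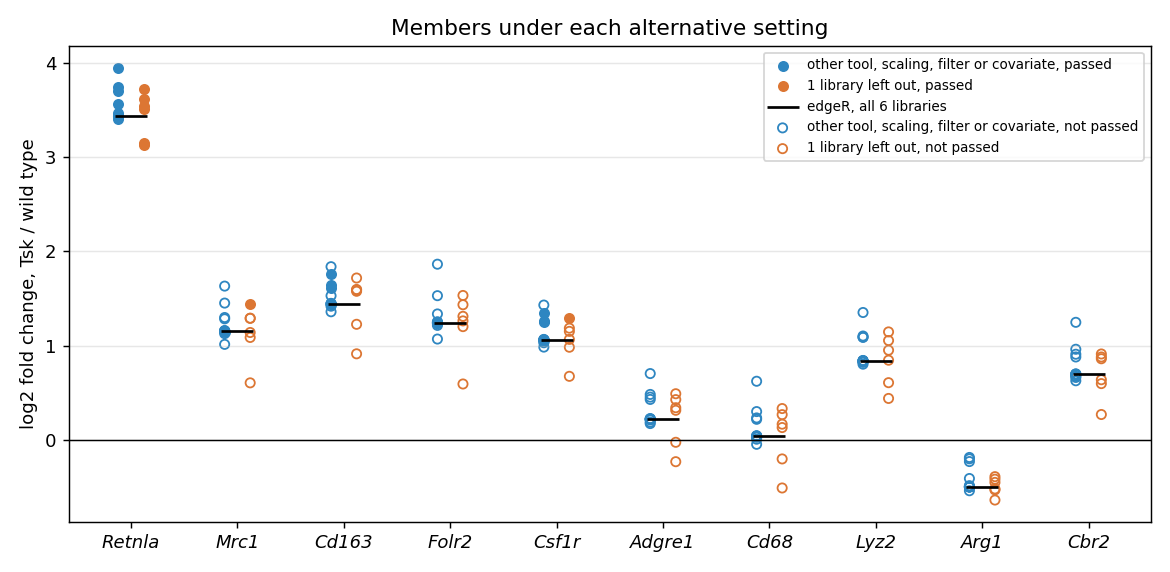
Log2 fold changes of the members under 18 alternative settings, filled where the adjusted p was under 0.05 and open where it was not, with a black bar for the edgeR fit on all 6 libraries. Retnla is filled throughout from 3.13 to 3.95, while Adgre1, Cd68, Lyz2, Arg1 and Cbr2 are open throughout.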

How the data were processed

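Total RNA of dorsal skin was depleted of ribosomal RNA and made into strand-marking libraries, per the labels' protocols. The submitters' processing notes name bcl2fastq 2.19.1.403, STAR and Partek 7.0 with build mm10. No source used here states the annotation, the handling of strand or how reads were assigned to genes. The authors deposited expected counts per gene (30.1 to 32.6% of values per library not whole within 0.001), which were rounded, and CPM values with 0.0001 added to each count, used in an alternative.

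The main test was that of edgeR 4.0.16, run in R 4.3.3 (quasi-likelihood F-test with robust estimation, TMM factors, minimum count 10, minimum total 15), with Benjamini-Hochberg adjustment over all 19971 genes tested. CPM in the text is scaled by TMM, fold changes are log2, and the SE is the log2 fold change divided by the square root of F. Exon lengths came from GENCODE M21. DESeq2 1.42.0, limma 3.58.1 (voom, and trend on log2 of the deposited CPM plus 1 or 0.1), other scalings, filters, covariates and leaving out each library were alternatives.

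The members and the 19 other gene lists were chosen with earlier results of these data known. Named were the members, up to 4 called genes of each list with the smallest p, or, where none was called, the 2 with the highest mean log2 CPM (not named for lists of other cell types), the 5 genes most like Retnla and likewise Mrc1, and Lyz1 and Retn. A gene that this rule names is not reported here. Planned protein comparisons were not run.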

Additional observations from a re-analysis of the deposited data

How the results depend on the processing

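Retnla kept its direction and its call in all 18 alternatives. The count of members called, 1 in the edgeR fit, was 5 with DESeq2 (Retnla, Mrc1, Cd163, Folr2 and Csf1r), 3 with library totals alone, 3 with limma-trend on the deposited CPM at either pseudocount, and 1 to 3 with 1 library left out, the 3 being without Tsk replicate 4. Library totals moved the median log2 fold change of all genes from -0.03 to 0.25. Over all genes 683 were called (544 higher, 139 lower). That count was 1791 with library totals alone (1695 higher, 96 lower), 1895 and 1887 with limma-trend at a pseudocount of 1 and 0.1 (1794 and 1787 higher), 1157 without a filter on low counts, 1586 with DESeq2, 1165 with the skeletal muscle covariate, 60 with the adipocyte covariate and 63 to 1381 with 1 library left out, lowest without wild-type replicate 3 and highest without wild-type replicate 1, where 763 were higher and 618 lower. The cause of these shifts was not tested.

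Signs turned for Adgre1, Cd68, Irf5, Jak1, Slc7a2 and Retn, none of which was called by edgeR. With 1 library left out, Adgre1 ran from -0.23 (no Tsk replicate 6; -0.023 with no wild-type replicate 2) to 0.49, Cd68 from -0.51 (no Tsk replicate 6; -0.20 with no wild-type replicate 2) to 0.33, and Irf5 from -0.076 (no Tsk replicate 6) to 0.35. Cd68 stood at -0.044 by limma-voom. With library totals alone and limma-trend at a pseudocount of 1 and 0.1, Jak1 stood at 0.0627, 0.0621 and 0.0623 and Slc7a2 at 0.0553, 0.0859 and 0.0875. Retn turned to -0.83 with the adipocyte covariate. The cause was not tested. No paired analysis was possible because the wild-type and Tsk samples share no replicate number. Low counts limit Vsig4, Ccl24 and Il4.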
